A study of Homo sapiens with 4 samples.

Results

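Radiation kills cells in part through apoptosis, which is controlled by the BCL2 family at the outer mitochondrial membrane and by death receptors at the cell surface. Here 10 genes of these 2 pathways were described, taken from the table by gene name: the anti-apoptotic members BCL2L1 (BCL-XL) and MCL1, the pore-forming effectors BAX and BAK1, the BH3-only genes BBC3 (PUMA), BCL2L11 (BIM) and BID, and the receptors FAS, TNFRSF10A (DR4) and TNFRSF10B (DR5). All 10 genes were found, among 58174 rows of the deposited table that carry an Ensembl gene identifier. The RNA came from SW1990 and PANC-1, both established human pancreatic cancer cell lines. For each line there was 1 library of unirradiated cells and 1 of cells given an X-ray dose of 10 Gy, sequenced to see how the transcriptome of dying tumor cells changed. PANC-1 cells were grown in DMEM and SW1990 cells in another medium, both with serum, so medium and line cannot be told apart. The labels name no further treatment or allele, and the time from radiation to RNA extraction is not given in the sources used here. Counts on named genes summed to 17851815 (unirradiated) and 18305682 (irradiated) for SW1990 and to 23323266 and 20026595 for PANC-1. Throughout, a pair of counts or FPKM values of a line gives the unirradiated library first, a pair of log2 fold changes gives SW1990 first, and gene positions are on GRCh38. In such bulk RNA, fewer cells that express a gene and less of its RNA per cell cannot be told apart.

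As background, BAX and BAK1 form pores in the outer mitochondrial membrane that release cytochrome c and thereby switch on caspases. BCL2L1 and MCL1 hold them in check, and BH3-only proteins relieve that restraint or activate the effectors directly. FAS and the TRAIL receptors TNFRSF10A and TNFRSF10B recruit FADD and caspase-8 when a ligand binds, and caspase-8 can cleave BID to pass the signal on to mitochondria.

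The 7 BCL2 family genes share a short coding motif, the BH3 core, through which the proteins bind each other. It is shown because it is the feature that joins the 3 functional classes described below. The coding sequences are from GENCODE release 29 on GRCh38, read 5′ to 3′ over 27 bases. Capitals mark the codon for leucine and the pair of codons for glycine and aspartate, which are alanine and aspartate in BBC3.
BCL2L1: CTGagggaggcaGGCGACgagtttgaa
MCL1: TTAcgacgggttGGGGATggcgtgcag
BAX: CTCaagcgcatcGGGGACgaactggac
BAK1: CTCgccatcatcGGGGACgacatcaac
BID: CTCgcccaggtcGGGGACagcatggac
BBC3: CTGcggcggatgGCGGACgacctcaac
BCL2L11: TTGcggcgtattGGAGACgagtttaac

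The labelled cell type was checked against marker genes. The keratins KRT8, KRT18 and KRT19 were abundant in every library, with KRT8, the most abundant of 7 epithelial markers, between 785.72 and 1888.5 FPKM (reads scaled to transcript length and library size). KRT7, a ductal keratin, was low, between 5.02 and 6.35 FPKM. EPCAM and CDH1, both of epithelial cell contacts, stood at 217.29 and 140.08 FPKM in unirradiated SW1990 cells but at 2.28 and 0.673 FPKM in unirradiated PANC-1 cells. MUC1, the remaining epithelial marker, went the other way, with 2.00 and 3.23 FPKM in SW1990 cells and 6.61 and 13.7 FPKM in PANC-1 cells. PTPRC of leukocytes, PECAM1 of endothelium, CPA1 of acinar cells and DCN of fibroblasts had at most 2 counts in any library. Other markers of these cell types were present. PDGFRB of fibroblasts had 129 and 63 counts in SW1990 cells and 0 and 3 in PANC-1 cells, while COL3A1 had 0 in both SW1990 libraries and 80 and 77 in PANC-1 cells. COL1A1, a collagen gene, had 103 and 165 counts in SW1990 cells and 965 and 1315 in PANC-1 cells. VWF of endothelium had 14 and 50 counts in SW1990 cells, CD14 of monocytes had 39 and 56 in SW1990 and 26 and 52 in PANC-1 cells, and PRSS1 of acinar cells had 12 and 8 in SW1990 cells and 0 in both PANC-1 libraries. The part of these markers in the results was not tested.

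The genes differed widely in level. In unirradiated SW1990 cells BCL2L1 was highest at 50.7 FPKM, followed by BAX (44.7), TNFRSF10B (34.4), MCL1 (32.7), BID (21.0), TNFRSF10A (20.4), BAK1 (11.8), FAS (4.32), BBC3 (2.90) and BCL2L11 (2.06). The irradiated SW1990 library gave the same order of the 10 genes. In unirradiated PANC-1 cells the order began with the anti-apoptotic pair, BCL2L1 at 83.6 and MCL1 at 66.4 FPKM, and went on with BAX (35.6), TNFRSF10B (29.2), BAK1 (21.8), TNFRSF10A (7.31), BID (6.59), BBC3 (3.05), BCL2L11 (2.39) and FAS (0.0816). In the irradiated PANC-1 library BID stood above TNFRSF10A and BCL2L11 above BBC3, so these neighbours had no fixed order. With 1 library per line and treatment, no spread between replicates can be given for these levels.

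The first comparison asked how radiation changed these genes in each line. The counts of the pair of libraries of a line were set against each other after TMM scaling, over every gene that reached 1 FPKM in either of them. A change was called with the study's own limits, a q-value under 0.001 together with a fold above 2. This read test compares 2 libraries and not the conditions, and the intervals below cover counting error only.

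In SW1990 cells all 10 genes had a higher scaled count in the irradiated library, with a median log2 fold change of 0.39 against -0.01 over the 15731 genes tested. Of all genes tested, 49.3% were higher by any amount. Only BBC3 was called, against 4.13% of all genes. With an assumed coefficient of variation of 0.4 between replicates BBC3 was no longer called. The 3 genes past a fold of 1.5 were BBC3, BCL2L11 and FAS, against 10% of all genes higher and 10.3% lower by that limit, and none of the 10 was lower. In PANC-1 cells, where 9 of the genes passed the expression limit, 2 were higher and 7 were lower, with a median of -0.33 against -0.02 over 15159 genes. From the FPKM values, 4 of the same 9 were higher there, with a median of -0.0033 against 0.07 over all genes tested, so the size of the median depended on the measure. There 48.3% of all genes were higher by any amount, 11.3% were higher and 10.3% lower past 1.5-fold. None of the 9 was called, against 4.7% of all genes, and 2 genes, BBC3 and TNFRSF10B, were lower past 1.5-fold. With total counts in place of TMM the calls over all PANC-1 genes changed from 360 higher and 352 lower to 456 higher and 283 lower.

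**Figure D1:**
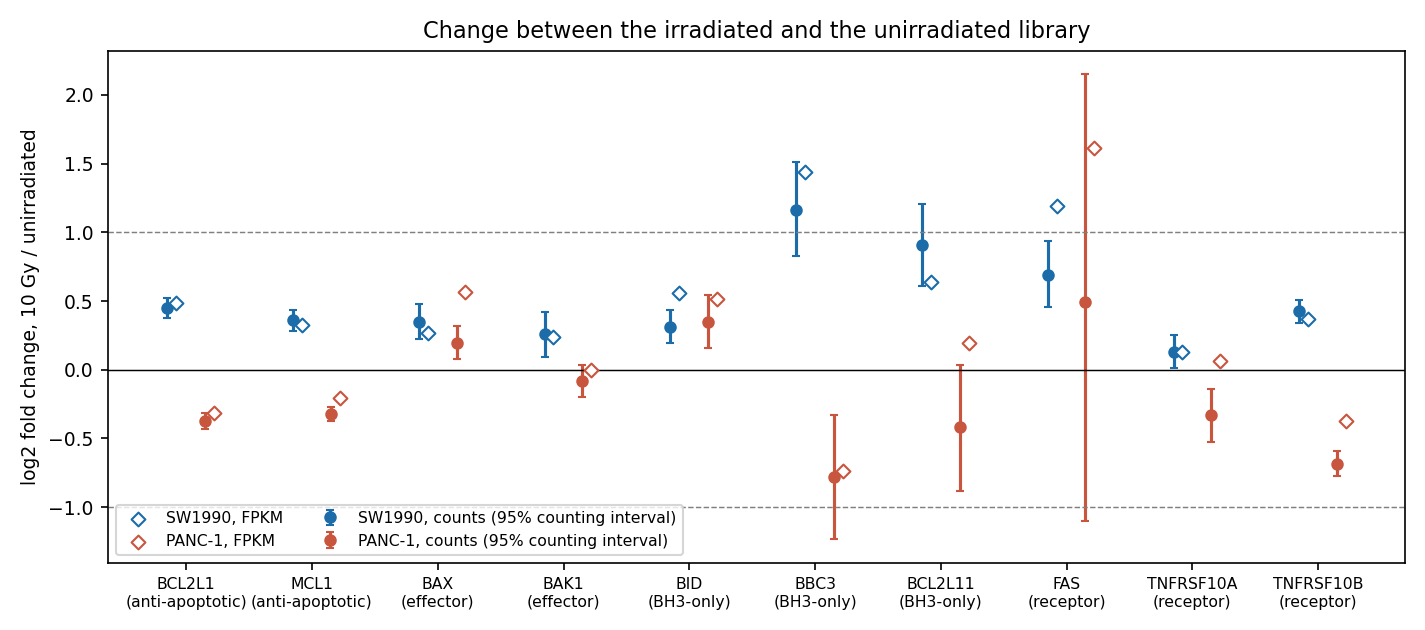
log2 fold change of the irradiated over the unirradiated library for each gene and line. Circles are from counts with 95% counting intervals, diamonds from FPKM, and dashed lines mark a 2-fold change. All SW1990 circles lie above 0, while 7 of the 10 PANC-1 circles lie below it.

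Among the anti-apoptotic genes, BCL2L1 (chromosome 20, 31664452 to 31723989) had 2551 and 3497 counts in SW1990 cells, and 5328 and 3759 in PANC-1 cells. It was thus higher with radiation in one line, with a log2 fold change of 0.45 (0.37 to 0.52), and lower in the other, with -0.37 (-0.43 to -0.31). MCL1 (chromosome 1, 150574551 to 150579738), a short-lived protein that binds BAK1 and BIM, had 2469 and 3183 counts in SW1990 cells and 6682 and 4886 in PANC-1 cells. Its log2 fold changes were 0.36 (0.28 to 0.44) and -0.32 (-0.37 to -0.27). For both genes the counting intervals of the lines did not overlap. Per length, MCL1 was higher in both PANC-1 libraries (66.4 and 57.6 FPKM) than in both SW1990 libraries (32.7 and 41.1 FPKM). The levels of BCL2L1 overlapped between the lines, at 83.6 and 67.4 FPKM against 50.7 and 71.0 FPKM.

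Of the effectors, BAX (chromosome 19, 48954815 to 48961798) had 897 and 1147 counts in SW1990 cells and 1128 and 1182 in PANC-1 cells. Its log2 fold changes were 0.35 (0.22 to 0.48) and 0.20 (0.08 to 0.32), so it was higher with radiation in both lines and the intervals overlapped. From the FPKM values the change in PANC-1 cells was 0.57. In FPKM, BAX stood at 44.7 and 53.9 in SW1990 and at 35.6 and 52.7 in PANC-1 cells. BAK1 (chromosome 6, 33572547 to 33580293) had 554 and 666 counts in SW1990 cells, or 0.26 (0.09 to 0.42) as a log2 fold change. In PANC-1 cells it had 1346 and 1162 counts and -0.08 (-0.20 to 0.03), which turned to 0.01 with total counts as the scale. No change of BAK1 was detectable in PANC-1 cells at this depth, and its FPKM was 21.8 in both libraries.

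BBC3 and BCL2L11, both BH3-only genes, had the largest log2 fold changes of counts in SW1990 cells, and BBC3 also in PANC-1 cells. BBC3 (chromosome 19, 47220822 to 47232766), which binds all anti-apoptotic members, had 106 and 239 counts in SW1990 cells. It rose 2.24-fold, with a counting interval of 1.78 to 2.85. In PANC-1 cells it had 122 and 65 counts, a log2 fold change of -0.78 (-1.24 to -0.33). Its FPKM was 2.90 and 7.89 in SW1990 and 3.05 and 1.83 in PANC-1 cells. The unirradiated libraries of the lines thus lay close together, with the irradiated ones above and below them. BCL2L11 (chromosome 2, 111119378 to 111168447), a direct activator of BAX and BAK1, had 144 and 271 counts in SW1990 cells and 101 and 69 in PANC-1 cells. The log2 fold changes were 0.91 (0.61 to 1.21) and -0.42 (-0.88 to 0.04). In PANC-1 cells the FPKM of BCL2L11 was higher after radiation, by 0.19 on the log2 scale, so its direction there depended on the measure. BID (chromosome 22, 17734138 to 17774770) was higher with radiation in both lines, with 1041 and 1300 counts in SW1990 cells and 411 and 479 in PANC-1 cells. Its log2 fold changes were 0.31 (0.20 to 0.43) and 0.35 (0.16 to 0.54), or 0.56 and 0.51 from the FPKM values. BID was at 21.0 and 30.9 FPKM in SW1990 cells and at 6.59 and 9.40 FPKM in PANC-1 cells, so the lines did not overlap.

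Among the receptors, FAS (chromosome 10, 88990582 to 89015785) had 234 and 380 counts in SW1990 cells, or 0.69 (0.45 to 0.93) as a log2 fold change. Its FPKM went from 4.32 to 9.89 in the same libraries, a log2 fold change of 1.20, which lies past 2-fold while that of the counts does not. In PANC-1 cells FAS had 7 and 9 counts, too few to pass the expression limit, and its interval ran from -1.10 to 2.15. TNFRSF10B (chromosome 8, 23020133 to 23069179) had 2002 and 2699 counts in SW1990 cells and 2730 and 1553 in PANC-1 cells. Its log2 fold changes were 0.42 (0.34 to 0.51) and -0.68 (-0.77 to -0.59), and the FPKM values gave -0.37 for PANC-1 cells. TNFRSF10A (chromosome 8, 23190452 to 23225126) moved least in SW1990 cells, with 1113 and 1225 counts and a log2 fold change of 0.13 (0.01 to 0.25). In PANC-1 cells it had 531 and 386 counts, a log2 fold change of -0.33 (-0.52 to -0.14), but 0.06 from the FPKM values.

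Some of these genes share exon bases with neighbours on the other strand, and counting by strand is not stated, so their reads cannot be told apart there. FAS shares 8.93% of its exon bases with ACTA2, which itself had 110 and 218 counts in SW1990 cells and 0 in both PANC-1 libraries. BCL2L11 shares 10.9% with MIR4435-2HG, which had 420 and 419 counts in SW1990 cells and 1458 and 1246 in PANC-1 cells. TNFRSF10A shares 9.01% with AC100861.1, which had 202 and 228 counts in SW1990 cells and 123 and 115 in PANC-1 cells, and 7.59% with TNFRSF10A-AS1, which had 0 in all 4 libraries. BCL2L1 shares 43% with ABALON, with at most 20 counts in any library. The part of this overlap in the changes was not tested.

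The second comparison asked whether radiation changed a gene over both lines. In a fit of all 4 libraries that allowed for the line (edgeR, quasi-likelihood, Benjamini-Hochberg adjustment), 0% of 18180 genes passed an adjusted p under 0.05, and so none of the 10. At an unadjusted p under 0.05 it passed 833 genes (4.58%), again none of the 10, and DESeq2's Wald test passed 39 genes after adjustment. BID, with the smallest p of the 10, had a log2 fold change of 0.35 ± 0.16 (SE, edgeR adjusted p = 0.936) and was positive in 2 of 2 lines. FAS followed with 0.65 ± 0.32 (edgeR adjusted p = 0.936). For BBC3, with opposite directions in the lines, the fit gave 0.24 ± 0.56 (edgeR adjusted p = 0.978).

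The difference between the lines in the change was taken as the log2 fold change in SW1990 minus that in PANC-1 cells, with an interval from the counts. It was 1.94 (1.40 to 2.49) for BBC3, 1.32 (0.80 to 1.85) for BCL2L11 and 1.11 (0.99 to 1.23) for TNFRSF10B. BCL2L1 followed with 0.82 (0.73 to 0.92), MCL1 with 0.68 (0.59 to 0.77), TNFRSF10A with 0.46 (0.24 to 0.68) and BAK1 with 0.34 (0.14 to 0.54). The intervals of BAX (-0.02 to 0.32), BID (-0.26 to 0.19) and FAS (-1.24 to 1.64) held 0. Of the 9 genes tested in both lines, 7 thus had an interval without 0, against 51.8% of the 13173 genes tested in both lines with counts in every library. The same 7 were higher in the irradiated SW1990 and lower in the irradiated PANC-1 library (BAK1 at 0.01 in PANC-1 cells with total counts, and BCL2L11 and TNFRSF10A above 0 there from the FPKM values), against 23.3% of those genes. With 1 library in each of the 4 groups, a difference between the lines and a difference between single cultures cannot be told apart.

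The third comparison set the lines against each other with the treatments as the 2 libraries of each line. In the same fit, which also allowed for treatment, 43.6% of all genes passed an adjusted p under 0.05, with 21.4% higher and 22.2% lower in SW1990 cells. Of the 10 genes 5 passed, a share close to that of all genes. FAS was higher in SW1990 cells by 5.32 ± 0.35 on the log2 scale (SE, adjusted p = 0.00124), BID by 1.498 ± 0.158 (adjusted p = 0.00343) and TNFRSF10A by 1.47 ± 0.19 (adjusted p = 0.00587). BAK1 had a log2 fold change of -0.93 ± 0.17 (adjusted p = 0.0147) and MCL1 of -0.92 ± 0.21 (adjusted p = 0.0254), both lower in SW1990 cells. The same 5 genes passed DESeq2's test. FAS, with 7 and 9 counts in PANC-1 cells, entered this fit only through the SW1990 libraries, where it was high, so its passing is given as a description only. BCL2L11 (1.35 ± 0.43, adjusted p = 0.0609), BBC3 (0.94 ± 0.56, adjusted p = 0.234), BCL2L1 (-0.48 ± 0.24, adjusted p = 0.168), TNFRSF10B (0.28 ± 0.30, adjusted p = 0.486) and BAX (-0.08 ± 0.15, adjusted p = 0.70) did not pass.

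The other genes of the 2 pathways were listed by role, 49 in all. In SW1990 cells 37 of them were tested, 26 higher and 11 lower in the irradiated library. Their log2 fold changes had a median of 0.20. Of these, 4 were called higher and 1 lower. In PANC-1 cells 35 were tested, 13 higher and 22 lower, with a median of -0.07, and 2 were called, both lower. Over all genes tested, 4.13% were called and 49.3% were higher in SW1990 cells and 4.7% and 48.3% in PANC-1 cells, with medians of -0.01 and -0.02. The share called among the listed PANC-1 genes was thus close to that of all genes.

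Of the further BH3-only genes and their relatives, all 8 tested in SW1990 cells were higher with radiation, and 1 was called, against 49.3% and 4.13% of all genes. The called gene was BCL2L15, a little-studied relative, which rose from 175 to 482 counts (log2 fold change 1.45). In PANC-1 cells 7 of this list were tested, 4 higher and 3 lower, against 48.3% of all genes higher. Their median log2 fold change there was 0.27, and 0 were called, against 4.7% of all genes. BNIP3L, a relative of BNIP3, was near 0, with a log2 fold change of 0.03 from counts and -0.10 from the FPKM values in SW1990 cells. PMAIP1 (NOXA), which binds MCL1, had 135 and 222 counts in SW1990 cells (log2 fold change 0.71) and 509 and 309 in PANC-1 cells (-0.59), directions like those of BBC3. BAD, which binds BCL-XL, had positive values in both lines, 0.70 and 0.62. The reads of BAD are uncertain, because 23.7% of its exon bases are shared with GPR137 on the other strand. GPR137 had 327 and 373 counts in SW1990 cells and 753 and 889 in PANC-1 cells. BNIP3, a mitochondrial protein of the hypoxia response, had 0 counts in both SW1990 libraries and 852 and 773 in PANC-1 cells. BIK, found at the endoplasmic reticulum, had 236 and 272 counts in SW1990 cells and 0 and 1 in PANC-1 cells.

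Among the other anti-apoptotic genes, BCL2 itself was low, with 0.948 and 0.589 FPKM in SW1990 and 1.495 and 1.26 FPKM in PANC-1 cells. BCL2A1 had 236 and 185 counts in PANC-1 cells and 0 in both SW1990 libraries. BCL2L2 (BCL-W) was called lower in PANC-1 cells, from 1094 to 45 counts (log2 fold change -4.47, or -2.83 from the FPKM values). Its reads are uncertain, because 19.4% of its exon bases also belong to the read-through gene BCL2L2-PABPN1 on the same strand, which had 113 and 147 counts.

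On the receptor side, the decoy TNFRSF10C, which binds TRAIL without a death domain, rose in SW1990 cells from 31 to 179 counts (log2 fold change 2.52, or 1.92 from the FPKM values) and had 2 and 9 counts in PANC-1 cells. Its reads are uncertain too, since 26% of its exon bases are shared with AC107959.4 on the same strand. The decoy TNFRSF10D had log2 fold changes of 0.37 and 0.45, and TNFRSF1A, the main receptor for TNF, -0.47 and -0.64. The FPKM values of TNFRSF1A gave -0.75 and -1.13. Of the 5 ligands, 1 (TNFSF15) passed the expression limit in SW1990 and 0 in PANC-1 cells. FASLG had 0 counts in all 4 libraries, which allows a level of up to 0.129 to 0.168 CPM (a floor of 3 counts, scaled to each library's total), and TNFSF10 (TRAIL) had 21 and 27 counts in SW1990 cells and 0 in both PANC-1 libraries. TNFSF15 rose in SW1990 cells from 255 to 753 counts (log2 fold change 1.56) and had 22 and 4 in PANC-1 cells.

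Of the adaptors and regulators, CASP10, an initiator caspase beside CASP8, rose in SW1990 cells from 92 to 259 counts (log2 fold change 1.49) and had 0 and 8 counts in PANC-1 cells. FADD had log2 fold changes of 0.07 and 0.18, CASP8 of -0.12 and -0.12, and CFLAR, the inhibitor of CASP8, of -0.11 and -0.03 (0.19 from the FPKM values in PANC-1 cells). CFLAR was higher in SW1990 than in PANC-1 cells, by 1.51 ± 0.14 on the log2 scale (SE, edgeR adjusted p = 0.00252). Downstream of mitochondria, XIAP, which inhibits caspases, fell in both lines, from 1021 to 508 counts in SW1990 cells (log2 fold change -1.01) and from 3186 to 565 in PANC-1 cells (-2.37). The FPKM values of XIAP gave -0.68 and -1.24. BIRC3, a related inhibitor, had 337 and 301 counts in SW1990 cells (log2 fold change -0.17) and 1019 and 1789 in PANC-1 cells (0.94). CYCS, which encodes cytochrome c, had 0.24 and -0.07, and APAF1, its partner in the apoptosome, 0.03 and 0.34. From the FPKM values APAF1 had 0.55 and 0.51.

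**Figure D2:**
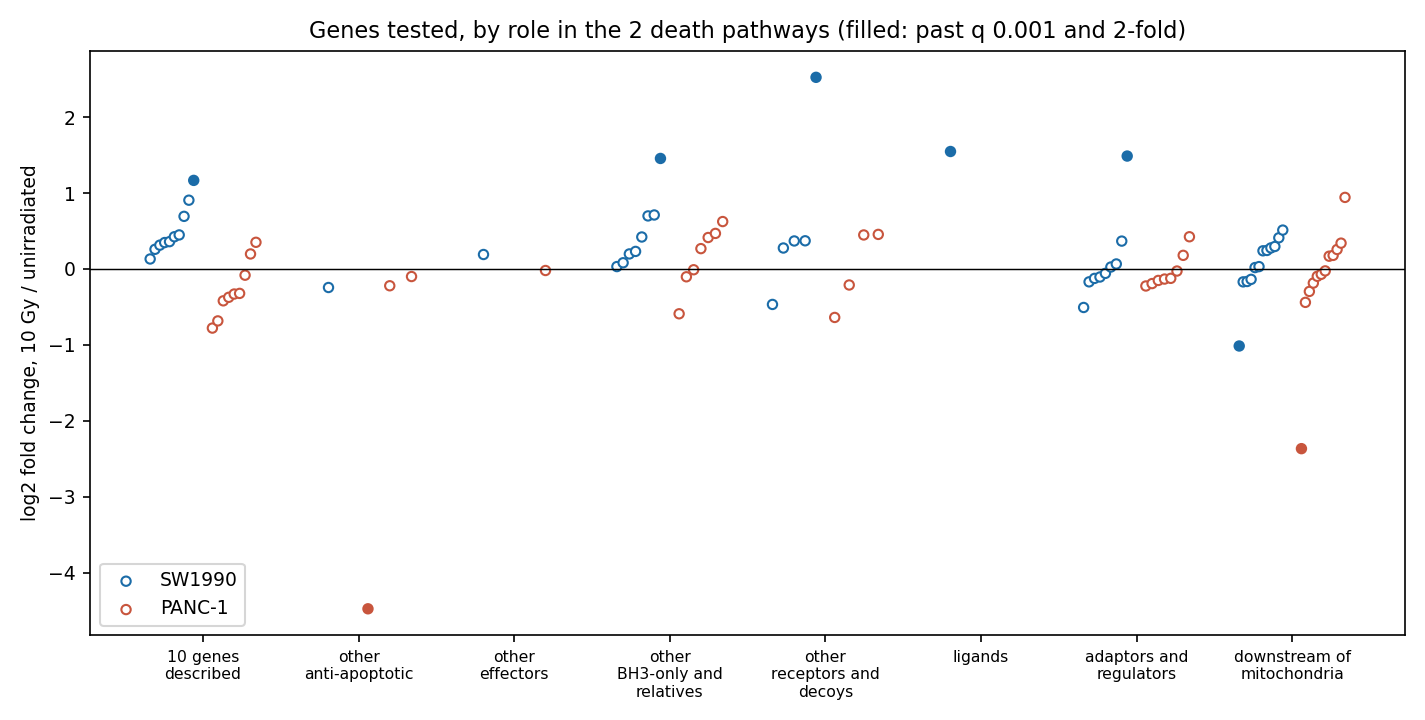
log2 fold change of the irradiated over the unirradiated library for the genes tested in each line, grouped by role. Filled points passed a q-value of 0.001 and a 2-fold change, and these include BBC3 in SW1990 cells and XIAP in both lines.

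Beside the death pathways, 4 genes known to respond to DNA damage gave a reference for the treatment. CDKN1A (p21), which halts the cell cycle, rose in SW1990 cells from 1229 to 4002 counts (log2 fold change 1.70), and PLK2, a kinase, from 419 to 1346 (1.68, or 1.02 from the FPKM values). In PANC-1 cells CDKN1A had 1282 and 782 counts (-0.58) and PLK2 had 1649 and 1629 (0.11). GDF15, a secreted stress factor, had 6849 and 8740 counts in SW1990 cells (0.34) and fell in PANC-1 cells from 8563 to 3611 (-1.12). MDM2, a ubiquitin ligase, had log2 fold changes of 0.70 and 0.22, or 0.43 and 0.57 from the FPKM values.

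The genes most like BBC3, which of the 10 had the largest mean absolute log2 fold change over the lines, were taken by distance over the 4 libraries in log2 CPM centred on each gene's mean, among 11412 genes. They were GPD1L (distance 0.156; 265 and 586 counts in SW1990 and 342 and 161 in PANC-1 cells), POU2F1 (0.209) and ADI1 (0.22). With 4 libraries, such likeness is a description only.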

How the data were processed

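RNA-seq of 4 libraries was used. According to the supplementary methods, reads were filtered with Trimmomatic (0.36), aligned with HISAT2 (2.0) to GRCh38 and quantified with StringTie (1.3.3b), and the authors deposited FPKM values from that step. The deposited counts are raw whole numbers, and how reads were counted is not given in the sources used here. The submitters' processing notes name the same versions. The 1089 rows that name no gene (0.453% to 0.635% of the counts of a library) were left out, and 27 gene names turned into dates were restored by identifier. Folds were computed from TMM-scaled counts, with 0 set to 0.01.

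For each pair of libraries, edgeR 4.0.16 (R 4.3.3) gave an exact read test with the dispersion set to 0 and equalised counts below 0 set to 0, and all 4 with edgeR's quasi-likelihood test after filterByExpr, fitted across all genes with 1 residual degree of freedom. DESeq2 1.42.0 served as an alternative. The p-values of the 4-library fit treat lines or treatments as replicates. Intervals of folds are exact 95% binomial intervals, and those of differences between lines are normal approximations on the log scale. All genes passing the expression limit were tested, and both tests were checked on simulated counts. For the read test these counts held counting error only, and for the 4-library fit they held less spread than was fitted to the data. The check therefore cannot show how either test behaves with the spread between real cultures.

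The 10 genes, the lists by role, the marker genes and the naming rule were chosen with earlier results of these data known. The rule named all 10 genes and, from each list, those called, up to 3 with the largest change in each line and those that differed between the lines. The text gives a part of these, and FASLG, CASP8, FADD and APAF1 were added for their roles after their values were seen. Some results on a gene of these lists are not reported here.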

Additional observations from a re-analysis of the deposited data

Results flagged for a closer look

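For 7 of the 10 genes the irradiated library was higher in SW1990 and lower in PANC-1 cells, as it was for 23.3% of all genes tested in both lines with counts in every library. The log2 fold change in SW1990 minus that in PANC-1 cells was 1.94 for BBC3, 1.32 for BCL2L11, 1.11 for TNFRSF10B, 0.82 for BCL2L1, 0.68 for MCL1, 0.46 for TNFRSF10A and 0.34 for BAK1. With 1 library per line and treatment the difference was not tested against a spread between replicates. The counting interval of the PANC-1 change held 0 for BAK1 and BCL2L11, and from the FPKM values BCL2L11 and TNFRSF10A were higher with radiation in PANC-1 cells too.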

How the results depend on the processing

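All 10 genes remained higher in irradiated SW1990 cells under total counts, DESeq2's size factors, FPKM and a prior count of 2. In PANC-1 cells 3 of the 10 were higher (FAS included), 4 under total counts and 5 from the FPKM values. TNFRSF10A in PANC-1 cells changed sign from -0.33 to 0.062 with FPKM, and the cause was not tested. Over all genes, a fold limit of 1.5 raised the calls from 650 to 1456 in SW1990 and from 712 to 1776 in PANC-1 cells. An assumed coefficient of variation of 0.4 between replicates lowered them to 15 and 10, and BBC3 in SW1990 cells was then no longer called, while it was with 0.1. Over both lines DESeq2's Wald test passed 39 genes where edgeR passed 0. No paired analysis was possible because each group has 1 library and no replicate number, apart from the 4-library fit, which pairs the treatments within a line. With 1 library per group no library was left out in turn, since 3 libraries leave no residual degree of freedom. Counts of 7 and 9 limit what can be said of FAS in PANC-1 cells.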
